A study of Mus musculus with 6 samples.

Results

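The Mir30 family comprised 6 of the 23420 gene rows in each count table, Mir30a, Mir30b, Mir30c-1, Mir30c-2, Mir30d and Mir30e, and all 6 were found by symbol. They belong to 665 rows whose symbols begin with Mir, and 205 of those rows had any reads. The libraries held small RNA of the NIH 3T3 line, immortalised mouse fibroblasts grown in culture. All cells, input included, had been transfected with the pEGFP-NXF3 plasmid, which encodes nuclear export factor 3 fused to GFP. The 3 input libraries (no antibody) were compared with 3 NXF3 pulldown libraries, made from RNA recovered with an anti-GFP antibody on protein A beads. The series title names small nucleolar RNAs as the study's subject. No pulldown from cells without the tagged protein was used here, so the comparison is between the makeup of pulldown RNA and that of input RNA. NXF3 was overexpressed from a plasmid in 1 cell line, which limits what the pulldown can represent.

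MicroRNAs are cut from longer transcripts by Drosha and Dgcr8 in the nucleus into a hairpin, carried to the cytoplasm by exportin 5, and cut again by Dicer into a short duplex. One strand is loaded onto an Argonaute protein and guides it to mRNAs, mostly through the seed, bases 2 to 8 from the 5′ end. The miR-30 family is broadly expressed, and in rat cardiac cells it is known for repressing connective tissue growth factor. In human cells it is known for promoting fat cell differentiation.

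The sequences show what the family shares and which rows can be told apart by a short read. Mature sequences were held by the RefSeq table (GRCm38.p6) for 4 of the 6 rows, Mir30a, Mir30c-1, Mir30c-2 and Mir30e, while Mir30b and Mir30d are named only. The 5′ arms are given 5′ to 3′ with the seed in capitals.
Mir30a 5′ arm: uGUAAACAuccucgacuggaag
Mir30e 5′ arm: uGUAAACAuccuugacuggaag
Mir30c-1 5′ arm: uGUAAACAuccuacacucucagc
Mir30c-2 5′ arm: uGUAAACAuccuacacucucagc
All 4 carried the seed GUAAACA. Counted from 1 at the 5′ end, the arms of Mir30a and Mir30e differed by 1 substitution, C13U, with the base of Mir30a written first. The 5′ arms of Mir30c-1 and Mir30c-2 were identical over 23 bases. One other mature sequence in the table has this seed, the 5′ arm of Mir384, and the Mir384 row had 0 reads in all 6 libraries.

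The hairpins of the Mir30c pair are shown because they set how far their rows can be separated. The mature arms are in capitals.
Mir30c-1: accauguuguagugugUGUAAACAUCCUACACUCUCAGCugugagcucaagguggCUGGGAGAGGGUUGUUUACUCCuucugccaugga
Mir30c-2: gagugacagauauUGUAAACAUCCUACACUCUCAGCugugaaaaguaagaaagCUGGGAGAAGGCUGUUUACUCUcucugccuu
The longest stretch these hairpins share is 28 bases. Their 3′ arms, 22 bases each, differ by 3 substitutions. A read lying wholly within the shared stretch matches both hairpins equally, so its sequence does not tell from which row it came. The longest stretch shared by the hairpins of Mir30a and Mir30e is 18 bases.

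The rows form 3 neighbouring pairs in the mouse genome. On GRCm38.p6, the Mir30a hairpin lies at chr1:23272269-23272339 and that of Mir30c-2 at chr1:23291701-23291784, both on the plus strand and 19.4 kb apart. The Mir30c-1 hairpin lies at chr4:120769534-120769622 and that of Mir30e at chr4:120772606-120772697, both on the minus strand. Both lie within an intron of Nfyc, the gene of a subunit of the transcription factor NF-Y, in the GENCODE M21 models. Mir30b and Mir30d lie 3.8 kb apart on chromosome 15. Mir30f, annotated on the strand opposite Mir30e, was not analysed here. The files themselves hold no coordinates, and mm9 is the build named in the submitters' processing notes.

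The labels describe the small RNA as 30 to 375 nucleotides long, and the protocol gives that size for the amplified products cut from the gel. The hairpins are 71 to 96 nucleotides long, as the RefSeq gene table gives them, and the mature arms above 22 or 23. No label says whether the size counts the adapters. The rows name genes, so reads of a mature arm, of its hairpin and of longer precursors could not be told apart.

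Total gene counts ran from 769570 in pulldown 1 to 6946284 in pulldown 2. Rows beginning with Mir took 0.0435% to 0.132% of them, between 335 and 8406 reads per library. Pulldown 1 stood apart, with a median correlation of log2 levels with the other libraries of 0.90 against 0.93 to 0.95 for each of the others. Its normalisation factor (TMM, trimmed mean of M values, which adjusts for RNA makeup) was 1.95, and that of pulldown 2 was 0.609. Fragments of 11 fibroblast marker mRNAs had a summed level of 712 CPM (counts per 1000000 gene counts) in pulldown 1, 160 in pulldown 2, 275 in pulldown 3, and 265 to 373 in input. Of the markers of other cell types, 4 of 5 for adipocytes and all 5 each for epithelial cells and leukocytes were at 0, as were all 13 rows of microRNAs typical of other tissues. The part of these library differences in the results was not tested.

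Mir30 reads were sparse, 526 in all 6 libraries together. Inputs 1 to 3 held 39, 22 and 81 of them, and pulldowns 1 to 3 held 1, 294 and 89. In CPM this was 10.2, 11.7 and 20.6 in input and 1.30, 42.3 and 27.2 in the pulldown. Pulldowns 2 and 3 lay above all 3 inputs and pulldown 1 lay below all of them, so the groups overlapped. The exact 95% interval (Clopper-Pearson) of pulldown 3, 21.8 to 33.4 CPM, overlapped that of input 3, 16.3 to 25.6. That of pulldown 1 reached 7.24 CPM, under each input value. At the mean input share of gene counts, a library of its depth would have held 10.9 reads. At the mean input share of microRNA counts it would have held 5.83. The other microRNA rows together were also lowest in pulldown 1, at 434 CPM against 540 to 1300 in input. The input mean was 14.1 ± 5.62 CPM and the pulldown mean 23.6 ± 20.7 (SD, n = 3 each), a gap smaller than the SD of the pulldown. All intervals and floors given here measure counting error alone, with each read taken as independent. Where PCR copies of a molecule were counted as separate reads, these intervals are too narrow.

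**Figure D1:**
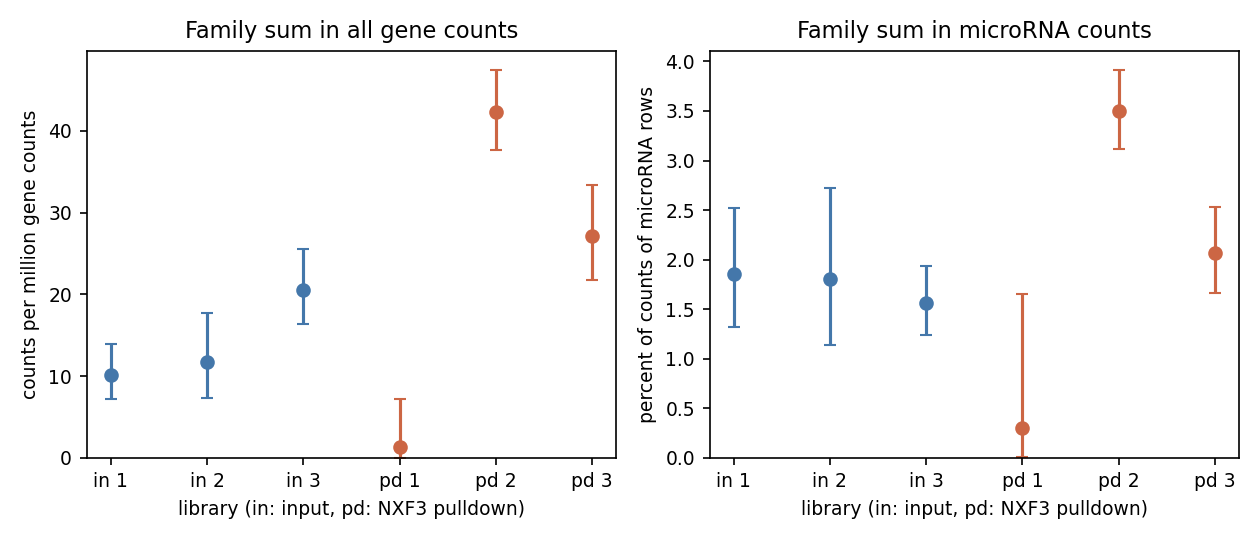
Sum of the 6 Mir30 genes in each library, in CPM (counts per 1000000 gene counts, left panel, vertical axis) and as a percentage of all counts in microRNA rows (right panel), with in for input, pd for NXF3 pulldown and bars for exact 95% intervals. Pulldown 2 is highest in both panels, at 42.3 CPM and 3.50%, and pulldown 1 lowest, at 1.30 CPM and 0.299%.

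Mir30d was the main member by reads. Inputs 1 to 3 held 29, 13 and 60 of its reads, and pulldowns 1 to 3 held 1, 169 and 63. Its level was 7.57, 6.90 and 15.2 CPM in input and 1.30, 24.3 and 19.2 in the pulldown. As for the family sum, pulldowns 2 and 3 lay above every input and pulldown 1 below. The interval of pulldown 3, 14.8 to 24.6 CPM, overlapped that of input 3, 11.6 to 19.6. Scaled with TMM as well, its mean level was 9.97 ± 3.43 CPM across inputs and 20.5 ± 19.7 across pulldowns (SD, n = 3 each).

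Mir30a came next. Inputs 1 to 3 held 7, 9 and 9 of its reads, and pulldowns 1 to 3 held 0, 89 and 20. Its level was 1.83, 4.78 and 2.29 CPM in input, and 0, 12.8 and 6.10 in the pulldown. Pulldowns 2 and 3 again lay above every input and pulldown 1 below. The exact 95% interval of pulldown 3, 3.73 to 9.42 CPM, overlapped those of inputs 1 to 3, which reached 3.77, 9.07 and 4.34. That of pulldown 2, 10.3 to 15.8 CPM, lay above all of them. The count of 0 in pulldown 1 allows a share of up to 0.00039% of its gene counts (3 reads), which is above the share of Mir30a in input 1 and input 3. Its exact 95% interval reaches 4.79 CPM, against a level of 4.78 CPM in input 2. A level like that of any input was therefore not detectable as a difference at the depth of pulldown 1. Scaled with TMM, its mean level was 2.98 ± 1.33 CPM across inputs and 9.22 ± 10.8 across pulldowns (SD, n = 3 each).

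**Figure D2:**
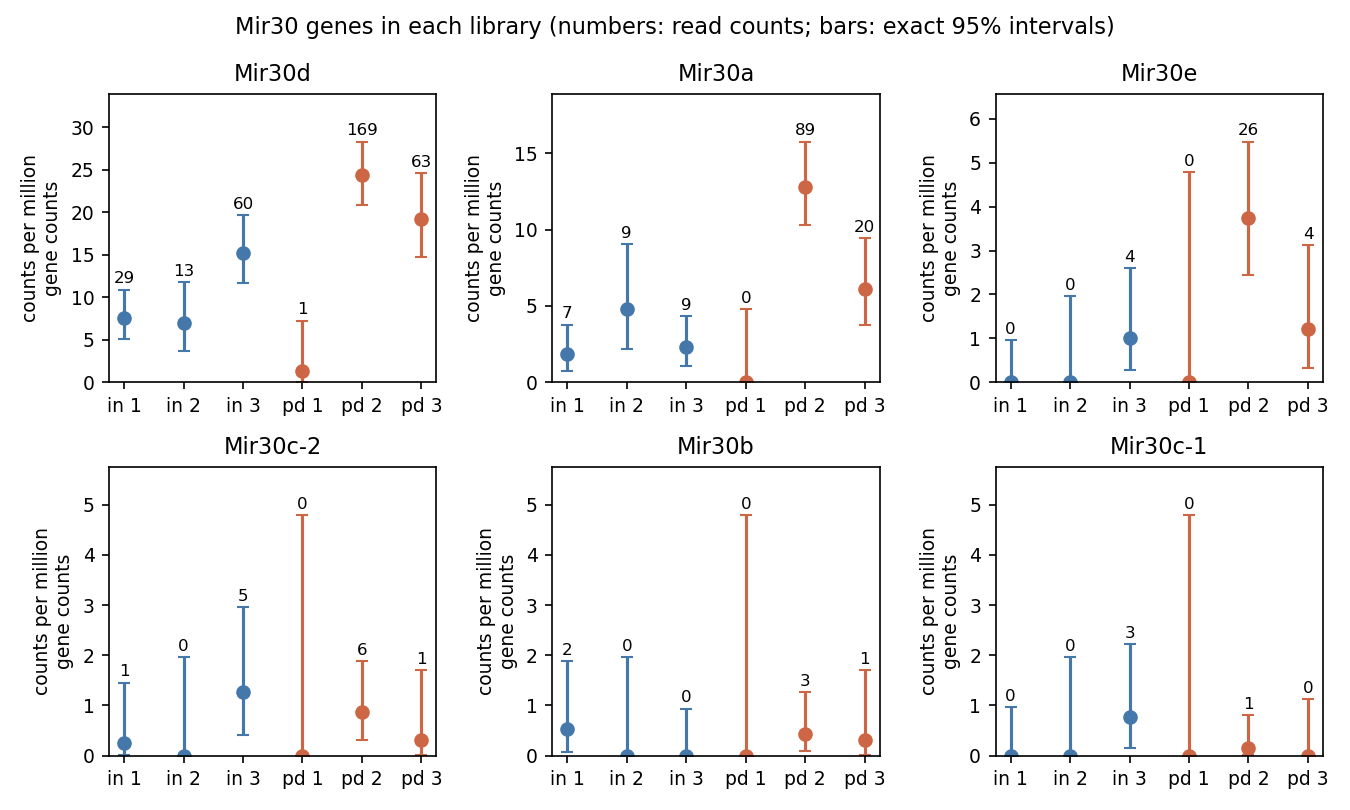
CPM (counts per 1000000 gene counts, vertical axes, each with its own scale) of the 6 Mir30 genes in the input (in) and NXF3 pulldown (pd) libraries, with read counts above the points and exact 95% intervals as bars. Mir30d and Mir30a are highest in pulldown 2, at 169 and 89 reads, and pulldown 1 holds 1 Mir30 read in all.

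The other 4 rows had at most 26 reads in any library. Mir30e had 4 reads in input 3, 26 in pulldown 2 and 4 in pulldown 3, and 0 in the other libraries. Its 26 reads in pulldown 2 equal 3.74 CPM (exact 95% interval 2.45 to 5.48), against 1.02 in input 3 (0.277 to 2.60). Mir30c-2 had 1, 0 and 5 reads in input and 0, 6 and 1 in the pulldown. Mir30b had 2, 0 and 0 reads in input and 0, 3 and 1 in the pulldown. Mir30c-1 had 3 reads in input 3, 1 in pulldown 2 and 0 elsewhere. For each of these 4 rows the groups overlapped. The Mir30e interval of pulldown 2 also overlapped those of input 3, of pulldown 3 (0.333 to 3.12 CPM) and of pulldown 1, where 0 reads allow up to 4.79 CPM. Because the 5′ arms of the Mir30c pair are identical, the split of reads between the pair is uncertain. Reads of low mapping quality, which the counts leave out, made up 9.06% ± 0.106 of input and 8.02% ± 1.14 of pulldown reads (SD, n = 3 each), and their part in the Mir30c counts was not tested.

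Levels were also set against hairpin length, to compare members. In CPM per 100 nucleotides of hairpin, the input levels were 12.1 ± 5.66 for Mir30d and 4.18 ± 2.24 for Mir30a, and 0.608 ± 0.799 for Mir30c-2, 0.368 ± 0.638 for Mir30e, 0.285 ± 0.495 for Mir30c-1 and 0.181 ± 0.314 for Mir30b (SD, n = 3 each). Mir30d lay above Mir30a in every library by this measure. The last 4 did not differ from one another beyond their spread, while the gaps from Mir30d to Mir30a and from Mir30a to Mir30c-2 exceeded the SD of either member. In the pulldown the levels were 18.2 ± 14.8 for Mir30d and 8.88 ± 9.03 for Mir30a, and 1.80 ± 2.08 for Mir30e, 0.464 ± 0.522 for Mir30c-2, 0.256 ± 0.231 for Mir30b and 0.0539 ± 0.0934 for Mir30c-1. There the gap between any neighbours in the order was smaller than the larger of their SDs.

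Whether the pulldown held more of each member than input was tested with edgeR over all genes. Only Mir30a and Mir30d passed the filter on low counts, and 1852 genes were tested. Neither was called in either direction. Over all tested genes edgeR called 0 higher, which is 0% of them, and 1 lower, which is 0.054%. For Mir30a the fitted fold was 3.87, or 1.95 on the log2 scale with an SE of 0.72 and a 95% interval of 0.40 to 3.51, which did not pass (adjusted p = 0.825, edgeR). Its unadjusted edgeR p was 0.0177, rank 38 of the 1852. For Mir30d it was 2.14, or 1.10 on the log2 scale with an SE of 0.63 and a 95% interval of -0.27 to 2.46 (adjusted p = 0.898, edgeR). Both were higher in 2 of 3 pulldown libraries than in every input library. DESeq2 called neither, with 0.00832% of all genes higher and 0.0249% lower, and nor did limma-voom, with 0% higher and 0.054% lower. At an unadjusted p under 0.05, 42 genes were higher and 62 lower in the edgeR test.

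With TMM and the filter on low counts, the calls of these members depended on pulldown 1. Without it, 2261 genes were tested and both Mir30a and Mir30d rose. Mir30a was then 5.21-fold higher, 2.38 on the log2 scale with an SE of 0.45 (adjusted p = 0.0108, edgeR), in 2 of 2 pulldown libraries. Mir30d was 2.99-fold higher, 1.58 on the log2 scale with an SE of 0.36 (adjusted p = 0.0425, edgeR), likewise in 2 of 2. With that library left out, 6 genes or 0.265% of those tested were called higher and 5 or 0.221% lower. Of the 40 other microRNA rows tested then, 3 were called higher and 1 lower, so the calls were not particular to Mir30. Pulldown 2 worked the other way. Without it the log2 folds fell to 0.57 for Mir30a (SE 0.66) and 0.23 for Mir30d (SE 0.56), both at an adjusted p of 1.00 by edgeR, with 0 genes called. Leaving out any other library called neither member, beside 0% of all genes called higher and, without input 1, 2 or 3 or pulldown 3, 0.0443%, 0.0835%, 0.0482% and 0.0397% called lower. With a mean of at least 50 counts Mir30a was not tested and Mir30d not called, where 0.472% of 212 genes were called higher.

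**Figure D3:**
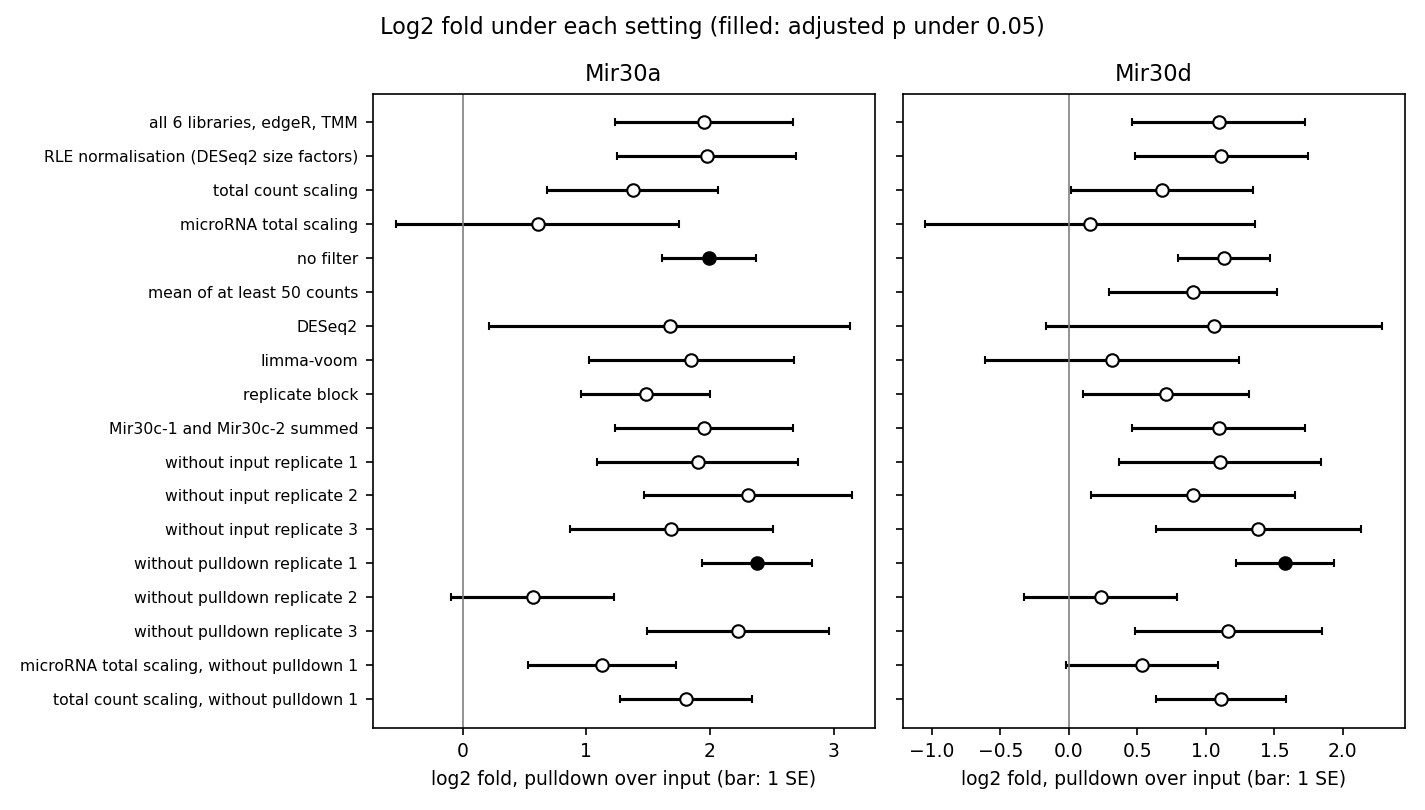
Log2 fold of Mir30a and Mir30d, pulldown over input (horizontal axes), under each setting (rows), with 1 SE as bars and filled points where the adjusted p was under 0.05. All folds are positive, and pulldown 1 left out is the setting in which both genes are filled.

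The size of the change depended on how libraries were scaled. With total counts in place of TMM, the log2 fold was 1.37 for Mir30a (SE 0.69) and 0.68 for Mir30d (SE 0.66), both at an adjusted p of 1.00 by edgeR. With libraries scaled to their total of microRNA rows, it was 0.61 for Mir30a (SE 1.15) and 0.15 for Mir30d (SE 1.2), neither called. Under either of these scalings 0 of the 1852 tested genes were called higher and 0 lower, so the lack of a call was not particular to Mir30. Scaling to microRNA rows moved the median log2 fold of all tested genes to 0.24, from 0.00 with TMM. Mir30d then lay below that median and Mir30a above it. Without pulldown 1, total count scaling gave 1.81 for Mir30a (adjusted p = 0.0916, edgeR) and 1.11 for Mir30d (adjusted p = 0.525, edgeR), where the median of all genes was -0.40, and called 0.0885% of genes higher and 0.354% lower. Scaling to microRNA rows without pulldown 1 gave 1.13 (adjusted p = 0.159, edgeR) and 0.53 (adjusted p = 0.411, edgeR), where that median was -1.05, and called 0.0442% higher and 3.1% lower. The calls of Mir30a and Mir30d without pulldown 1 were therefore lost under both other scalings. These 2 settings were chosen after seeing the data. With no filter on low counts edgeR called 2 members higher among 12025 genes, of which 0.0582% were called higher and 0.0748% lower. These were Mir30a (log2 fold 1.99, adjusted p = 0.000255, edgeR) and Mir30e (log2 fold 2.83, adjusted p = 0.0291, edgeR). Pulldown 2 held 26 of the 34 Mir30e reads. Among the 199 other microRNA rows in that setting, 3 were called higher and 1 lower.

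The family was next set against the other microRNA rows. The 36 others that were tested had a median log2 fold of 0.42 with TMM, 28 positive and 8 negative, against 0.00 over all tested genes, but -0.12 with libraries scaled to microRNA rows. Without pulldown 2 the TMM median was 0.04. Among the 38 tested microRNA rows Mir30a ranked 2 by log2 fold and 7 by p, and Mir30d ranked 7 by log2 fold and 13 by p. Without pulldown 1 the median of the 40 others was 0.92, and 35 of them were positive. The family took 1.85%, 1.81% and 1.56% of all counts in microRNA rows in inputs 1 to 3. It took 0.299%, 3.50% and 2.06% in pulldowns 1 to 3. Pulldowns 2 and 3 again lay above every input and pulldown 1 below, so the groups overlapped. The interval of pulldown 3, 1.66% to 2.53%, held the values of inputs 1 and 2, and that of pulldown 1, which rests on 1 read among 335, reached 1.65%. Only the interval of pulldown 2, 3.12% to 3.91%, lay clear of all 3 input intervals. The input mean was 1.74% ± 0.158 and the pulldown mean 1.95% ± 1.60 (SD, n = 3 each). The gap between the means, 0.214 percentage points, was within the spread of the pulldown libraries, and was -0.559 without pulldown 2 and 1.04 without pulldown 1.

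**Figure D4:**
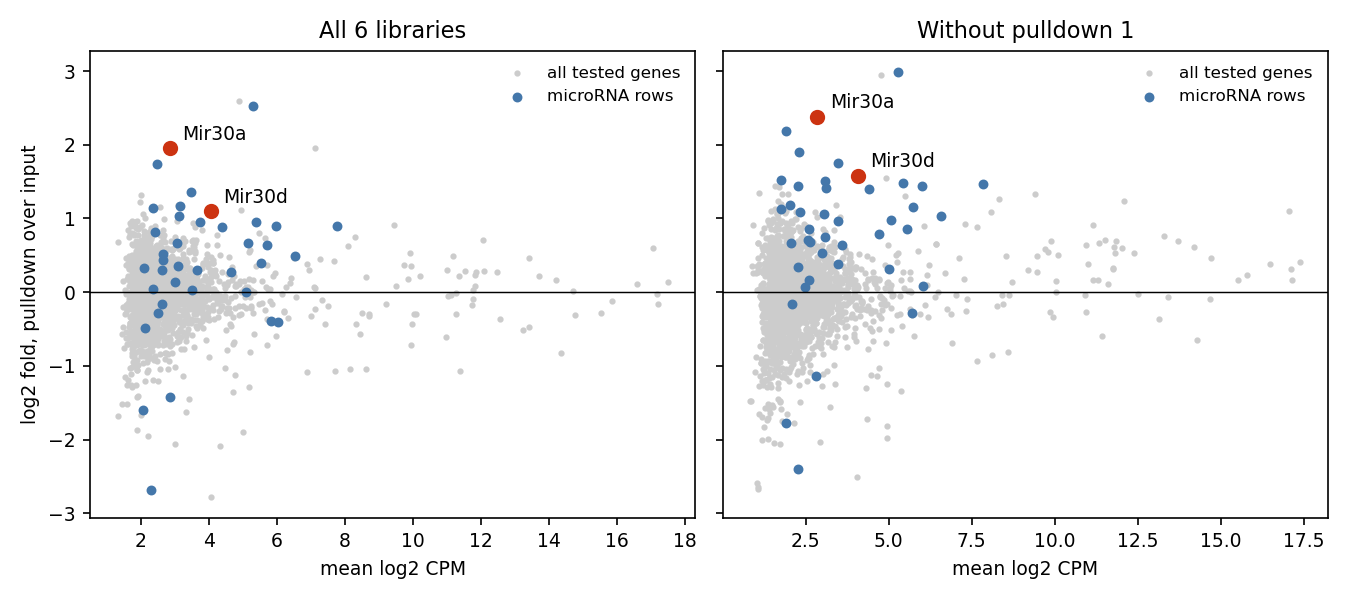
Log2 fold, pulldown over input, against mean log2 CPM for all tested genes (grey), microRNA rows (blue) and the Mir30 rows tested (red), with all 6 libraries (left) and without pulldown 1 (right). Mir30a moves from 1.95 to 2.38 and Mir30d from 1.10 to 1.58, and the other microRNA rows move up with them, from a median of 0.42 to 0.92.

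The let-7 rows, 11 genes of another large microRNA family, are given beside the family. Inputs 1 to 3 held 57, 49 and 126 of their reads, and pulldowns 1 to 3 held 10, 193 and 181. In CPM this was 14.9, 26.0 and 32.0 in input and 13.0, 27.8 and 55.2 in the pulldown. By read counts, which also depend on library depth, the 6 libraries had the same order for let-7 as for Mir30. In CPM both were lowest in pulldown 1, but the order otherwise differed. There let-7 was highest in pulldown 3 and lay lower in pulldown 2 than in input 3, while Mir30 was highest in pulldown 2. Without pulldown 1, Mirlet7e, named after its values were seen, was called higher as Mir30a and Mir30d were (log2 fold 1.76, adjusted p = 0.0108, edgeR). The other let-7 rows tested then were not called. These were Mirlet7b (log2 fold 1.08, adjusted p = 0.335, edgeR), Mirlet7d (0.71, adjusted p = 0.726) and Mirlet7i (0.54, adjusted p = 0.775). Mir30 reads per let-7 read were 0.684, 0.449 and 0.643 in input and 0.10, 1.52 and 0.492 in the pulldown. Pulldown 2 was the one library with more Mir30 than let-7 reads, and pulldown 3 lay within the input range of this ratio, whose difference between groups was not tested.

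Mir30d and Mir30a made up most of the family in every library. Mir30d made up 74.4%, 59.1% and 74.1% of Mir30 reads in inputs 1 to 3, and 57.5% and 70.8% in pulldowns 2 and 3. Mir30a made up 17.9%, 40.9% and 11.1% in input, and 30.3% and 22.5% in pulldowns 2 and 3. With 22 Mir30 reads, input 2 had a wide interval for Mir30a, 20.7% to 63.6%. Mir30e made up 8.84% of Mir30 reads in pulldown 2 (exact 95% interval 5.86% to 12.7%), 4.94% in input 3 and 4.49% in pulldown 3. For Mir30a both pulldown values lay within the range of the inputs, and for Mir30d the value of pulldown 3 lay within it and that of pulldown 2 below it. Pulldown 1, with 1 read, gives no makeup.

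**Figure D5:**
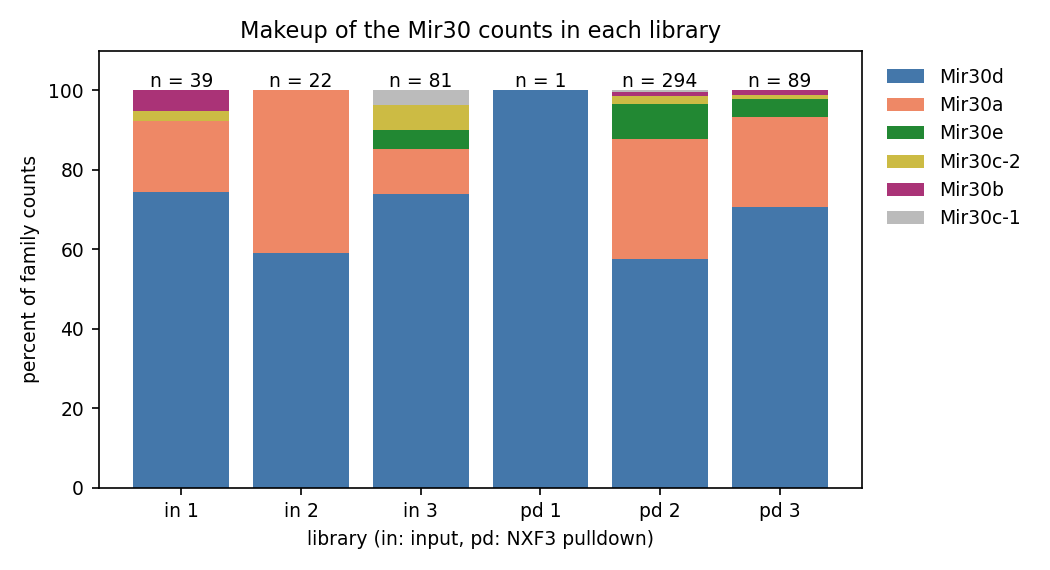
Percentage of Mir30 reads (vertical axis) from each of the 6 genes in the input (in) and NXF3 pulldown (pd) libraries, with the number of Mir30 reads above each bar. Mir30d is the largest part of every bar, from 57.5% in pulldown 2 to 74.4% in input 1, and the whole of pulldown 1, which holds 1 read.

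Ratios of neighbouring members are described for the 2 groups. The permutation test used could not pass a threshold of 0.05, so its p-values decide nothing about the 3 differences. The log2 ratio of Mir30a to Mir30c-2 averaged 2.45 ± 1.73 across inputs and 2.52 ± 2.18 across pulldowns (SD, n = 3 each, exact two-sided permutation p = 1). That of Mir30d to Mir30b was 5.08 ± 1.70 and 4.20 ± 2.26 (exact permutation p = 0.7, n = 3 each). That of Mir30e to Mir30c-1 was 0.12 ± 0.21 and 2.44 ± 2.17 (exact permutation p = 0.4, n = 3 each), with single values of 0.00, 4.14 and 3.17 in pulldowns 1 to 3. Adjusted over these 3 ratios each permutation p was 1. With 3 libraries against 3 the test cannot go below 0.1, and 0.5 was added to each count, so ratios against rows at 0 depend on that choice. In pulldown 1, Mir30a, Mir30c-2, Mir30e and Mir30c-1 had 0 reads, so their ratios there hold only the added counts. That of Mir30d to Mir30b rests there on 1 read against 0. The sign of the first difference, 0.07, and of the second, -0.88, changed when single libraries were left out.

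The gene whose pattern was most like the family sum over the 6 libraries was another microRNA row. Mir182 had a Pearson r of 0.99 with it on log2 CPM. Inputs 1 to 3 held 37, 23 and 79 of its reads and pulldowns 1 to 3 held 1, 227 and 60, and like the family it was lowest in pulldown 1 and highest in pulldown 2. In the edgeR test it was not called (log2 fold 0.89, SE 0.68, adjusted p = 0.96). The next 4 were Ubqln1 (r = 0.99), Kdm5c (r = 0.98), Elk3 (r = 0.98) and Zc3h11a (r = 0.98), which are protein-coding genes with 2 to 54 reads per library. Their edgeR log2 folds were 0.18 to 0.33. These 5 were picked as the highest among all tested genes outside the family, and all values share the same libraries and scaling factors.

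Fragments of mRNAs for the microRNA machinery gave no call. Of 25 listed genes with a row, 23 had a read and 9 passed the filter, of which 0 were higher and 0 lower by edgeR, and 0 by DESeq2, limma-voom or at an unadjusted edgeR p under 0.05. Their median log2 fold was 0.02, against 0.00 for all tested genes. Xpo5, which exports microRNA hairpins from the nucleus, had 14, 13 and 24 reads in input and 9, 23 and 7 in the pulldown (log2 fold -0.30, SE 0.36). Dicer1, which cuts them to mature length, had a log2 fold of 0.30 (SE 0.36). Eif2c1 and Eif2c2, which encode Argonaute proteins, had 0.02 (SE 0.36) and 0.11 (SE 0.28). Ddx5 and Ddx17, helicases that assist Drosha, had -0.02 (SE 0.26) and 0.54 (SE 0.34). Tnrc6a and Tnrc6b, which link Argonaute to mRNA decay, had -0.33 (SE 0.39) and -0.37 (SE 0.36), and Zcchc11, which adds uridines to let-7 precursors, 0.50 (SE 0.42). Nfyc, host of Mir30c-1 and Mir30e, had 0 to 2 reads per library and was not tested.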

How the data were processed

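The authors deposited 1 table of raw read counts per gene symbol for each library. Per the labels' protocols, library preparation used a small RNA kit and 14 PCR cycles. The submitters' processing notes name Bowtie, Partek and mm9, and the file names give rRNA removal and HTSeq-count. No source used here gives the counting mode, strand setting or annotation. Of all reads, 22.2% to 35.6% were assigned to genes, and the 5 summary lines that hold the others entered neither library sizes nor tests.

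Pulldown was tested against input with edgeR 4.0.16 in R 4.3.3 over all 6 libraries: filterByExpr (minimum count 10), TMM, quasi-likelihood F test, Benjamini-Hochberg adjustment over all tested genes and a threshold of 0.05. SEs were derived from the F statistic. DESeq2 1.42.0 and limma 3.58.1 were alternatives. The edgeR step was tested on simulated data with 1993 tested genes. There it called 60 of 83 genes changed by 1.5 on the log2 scale, 78 of 78 changed by 3 and 6 of 1832 unchanged. Whether such rates hold for Mir30a and Mir30d was not tested. The simulation gave all genes the same relative spread, and RNA makeup was the same in every library but for the changed genes. It therefore held no library that stood apart as pulldown 1 did. Sums over the family got no p-value. The labels speak of 3 independent experiments and do not say which libraries share one. The p-values measure the spread between these libraries.

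The members and lists were chosen with earlier results of these data known. Named were the 6 rows, Nfyc, machinery genes that passed the filter, the 5 genes most correlated with the family sum (log2 CPM, prior count 2), and the 3 most counted rows that share a mature sequence with another row.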

Additional observations from a re-analysis of the deposited data

How the results depend on the processing

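The log2 folds of Mir30a and Mir30d were positive under every alternative run in which each was tested, and 0 members were called lower in any. The number of members called higher, 0, was 2 without a filter, and 0 to 2 over the settings that left out single libraries, with 2 only without pulldown 1. The number of all genes called higher, 0, was 7 without a filter and 1 each with genes under a mean of 50 counts left out, with DESeq2 and with the replicate block, and 0 to 6 when single libraries were left out. The number called lower, 1, was 0 with total count scaling, with scaling to microRNA rows and with genes under that mean left out, 9 without a filter, 3 with DESeq2 and 3 with the replicate block, and 0 to 5 when single libraries were left out. Chosen after seeing the data, scaling to microRNA rows without pulldown 1 called 1 higher and 70 lower, where the median of all genes was -1.05, and total count scaling without pulldown 1 called 2 higher and 8 lower. With the 10 most abundant genes out of the denominator the difference in the family's share was 0.00654 percentage points in place of 0.000944, and leaving out single libraries gave 7.88e-06 to 0.00206. The log2 ratio difference of Mir30a to Mir30c-2 ran from -0.77 to 1.33 and that of Mir30d to Mir30b from -1.64 to 0.42 when single libraries were left out. The causes were not tested.

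Equal numbers correlated at 0.03, 0.07 and 0.14 in their deviations from the group means, and every library correlated best with its own number. The margin was thin for input 1, at 0.0304 with pulldown 1 and 0.0294 with pulldown 2. Values this low do not settle which libraries share an experiment, and the labels do not say. With the replicate block the log2 fold was 1.48 for Mir30a (adjusted p = 0.693, edgeR) and 0.71 for Mir30d (adjusted p = 0.911, edgeR). Depth limits the 4 rows with under 40 reads, which did not pass the filter on low counts. Of these, Mir30e was called by edgeR without a filter and not by DESeq2, and the other 3 were not called in any test run on them.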

Other observations

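Identical mature sequences at several loci concern more rows than the Mir30c pair. Of the 665 rows beginning with Mir, 528 had a mature sequence in the RefSeq table, and 73 of these share one with another row. Of the 73, 28 had a read (38.4%), against 155 of the 455 with no shared sequence (34.1%). Reads were placed unevenly within the most counted of them. Mir29b-1 had 683 reads and Mir29b-2 had 0, Mir125b-1 had 215 and Mir125b-2 had 3, and Mir92-2 had 28 and Mir92-1 had 0, over all 6 libraries. Mir30c-2 and Mir30c-1, which were not picked by total, had 13 and 4 reads. The labels do not say how reads with more than one best place were treated. The summary line for reads without a unique alignment was 0 in each library.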
